A study of Mus musculus with 21 samples.

Results

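The effect of P301S tau on the forebrain transcriptome of mice carrying human APOE3 was measured by RNA sequencing in 4 PS/E3H mice and 3 E3H mice, which together are 7 of the 21 libraries of the series. Mice were placed in the groups by their labelled genotype. Of the 55401 genes in the count table, 21251 passed the filter on low counts and were tested. E3H mice were homozygous for human APOE3, which replaces the mouse Apoe gene by targeting, carried no tau transgene, and were 9 to 10 months old. PS/E3H mice carried the same homozygous APOE3 alleles and were heterozygous for the PS19 transgene, a human tau (MAPT) cDNA with the P301S mutation driven by the mouse prion promoter, and were killed when their hindlimbs became paralyzed. By the study's methods all mice of both groups were male, were untreated and were perfused before the forebrain was frozen, pulverized and extracted. The study describes the groups as matched for age, but the labels give no age for the PS/E3H mice. Its median age at paralysis for PS/E3H mice is later than the age of the E3H mice. The tau genotype, the paralysis, the PS19 strain background and any difference in age went together and cannot be told apart here. By the study's methods the PS19 line was on a mixed B6 and C3H background and the APOE replacement mice were on C57BL6. PS19 mice homozygous for APOE came from crossing their first-generation offspring back to the APOE homozygotes. The other 14 mice of the series carry human APOE2 or APOE4, with or without PS19, and the question put to all of them was how the human APOE allele and P301S tau shape gene expression in the brain.

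As background, PS19 mice accumulate hyperphosphorylated human tau in neurons and later lose neurons, and both microglia and astrocytes react to it. Microglia, the resident macrophages of the brain, respond to damaged neurons and lipid through surface receptors such as TREM2, which signals through the adaptor TYROBP, and move from a homeostatic state marked by P2ry12 and Tmem119 to a disease-associated state marked by Itgax, Clec7a and Cst7. Reactive astrocytes raise the filament protein GFAP, and glia are the main source of the complement proteins that tag synapses in the brain.

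The total count per library was 60394625 to 75932183 in E3H mice and 61065315 to 72693566 in PS/E3H mice, and mitochondrial transcripts took 7.34 to 8.38% and 7.99 to 8.67% of the counts. Levels are given below as CPM, which are counts scaled to a common library size by the trimmed mean of M values, always for E3H mice 1 to 3 and PS/E3H mice 1 to 4 in that order, and fold changes are PS/E3H over E3H on the log2 scale with their standard error (SE). A gene was called when the adjusted p of edgeR's quasi-likelihood test was under 0.05 and the change was at least 2-fold, and was said to pass when the adjusted p alone was under 0.05. On the leading principal component, which held 29.4% of the variance, E3H mice lay between -45.97 and -38.19, PS/E3H mice 2 to 4 lay between 36.12 and 56.62, and PS/E3H_1 lay between the groups at -1.98. The summed CPM of 13 excitatory neuron markers was 4694 to 5227 in E3H and 3498 to 5025 in PS/E3H mice. With no other brain region as a reference, this sum does not test the forebrain label. A list of 15 thalamic, midbrain and hindbrain genes summed to 167 to 244 CPM in E3H and 210 to 297 CPM in PS/E3H mice. Of these 15, Hoxb5, Hoxb3, Hoxa5 and Hoxd4 did not pass the filter, and En1, a midbrain homeobox gene, was called higher (2.36, SE 0.58, edgeR adjusted p = 0.043) at 0.097 to 0.41 CPM in E3H and 0.61 to 1.49 CPM in PS/E3H mice, in 2 of 7 fits that left out 1 mouse. In bulk tissue, fewer cells of a type and less RNA per cell cannot be told apart, and the same holds for gains. Because the mice are labelled as separate samples and nothing more is given about litters, p-values measure the spread between these 7 mice.

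In PS/E3H mice, 254 genes were called higher (1.2% of those tested) and 27 were called lower (0.127%). The raised genes were led by microglial and astrocytic transcripts: Itgax rose 18.1-fold, Clec7a 19.4-fold, Cst7 29.7-fold and Gfap 6.33-fold. Of the raised genes 79 rose at least 4-fold and 34 at least 8-fold, whereas 5 of the lowered genes fell at least 4-fold. The median log2 fold change was 1.575 over the raised genes, -1.34 over the lowered genes and -0.004 over all genes tested. Without the fold limit, 712 genes passed higher (3.35%) and 429 lower (2.02%), and 4541 genes had an unadjusted p under 0.05. The groups did not overlap in 249 of the 254 raised genes and in 26 of the 27 lowered ones. These genes were chosen on the same values, so these counts are no separate support for the calls. Over all genes tested the groups did not overlap in 9.94% with PS/E3H higher and in 9.46% with PS/E3H lower. Of the raised genes 90 had an E3H mean under 1 CPM. The raised genes were mostly protein coding (235), as were 20 of the lowered ones.

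The counts depended on single mice. Higher and lower calls were 75 and 2 without E3H_1, 120 and 6 without E3H_2, 81 and 15 without E3H_3, 431 and 63 without PS/E3H_1, and 132 and 17 without PS/E3H_4. In total 60 raised genes and 2 lowered genes (Prl and Gm21887) were called in all 7 fits that left out 1 mouse. Of the genes named by rule that passed, 38 of 72 still passed without E3H_1, 48 without E3H_2, 43 without E3H_3 and 57 without PS/E3H_4.

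**Figure D1:**
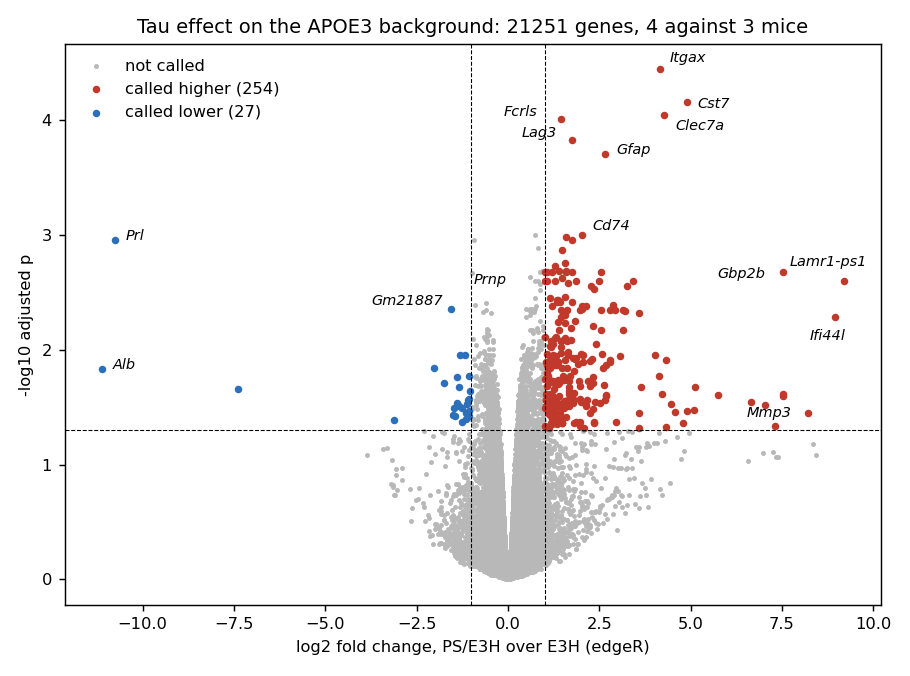
Each point is 1 of 21251 genes, with the log2 fold change of PS/E3H over E3H on the horizontal axis and -log10 of the adjusted p on the vertical axis and dashed lines marking 2-fold and an adjusted p of 0.05. The 254 genes called higher (red) lie mostly between 2-fold and 8-fold, the 27 called lower (blue) are few, and Itgax, Cst7 and Clec7a have the smallest adjusted p.

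The genes with the smallest adjusted p were markers of disease-associated microglia. Itgax, which encodes the integrin CD11c (chr7:128129547-128150657, GRCm38), was at 1.19, 1.29 and 0.81 CPM in E3H mice and at 15.7, 23.9, 22.0 and 17.3 CPM in PS/E3H mice. It rose by 4.17 on the log2 scale (SE 0.22, edgeR adjusted p = 3.6e-05). Cst7, which encodes the lysosomal protease inhibitor cystatin F (chr2:150570415-150578944), was at 0.455, 0.278 and 0.529 CPM against 8.46, 12.4, 16.3 and 13.5 CPM, a log2 change of 4.89 (SE 0.29, edgeR adjusted p = 7.0e-05). Clec7a, the receptor dectin-1 for fungal glucans (chr6:129461591-129472779), was at 1.05, 1.13 and 0.82 CPM against 11.4, 22.9, 19.8 and 23.2 CPM, a log2 change of 4.28 (SE 0.27, edgeR adjusted p = 9.1e-05). The groups stood far apart for all 3 genes, with the lowest PS/E3H mouse 10.1 to 16 times above the highest E3H mouse.

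Of 28 listed genes of the disease-associated state, all of which were tested, 20 were called higher and 4 more passed (Axl, Ctsl, Ctsb and Lpl), with a median log2 fold change of 1.80. Trem2 itself was at 16.4, 11.7 and 14.7 CPM in E3H mice and at 31.9, 42.9, 40.1 and 45.7 CPM in PS/E3H mice, a log2 change of 1.49 (SE 0.15, edgeR adjusted p = 0.00135). Tyrobp rose by 1.74 (SE 0.19) and Lilrb4a, an inhibitory receptor of myeloid cells, by 3.19 (SE 0.43). The lysosomal and secreted members Gpnmb, Lyz2, Spp1 and Lgals3 rose as well, but with a wide spread: Gpnmb was at 4.75, 3.69 and 4.403 CPM against 8.73, 61.0, 68.4 and 161 CPM. Its groups did not overlap, yet PS/E3H_1 lay close to E3H and PS/E3H_4 far above the rest. Igf1, Csf1, Fabp5 and Hif1a did not pass (edgeR adjusted p = 0.108, 0.0904, 0.0763 and 0.344). The number of called members was 11 without E3H_1 and 13 without E3H_3, and between 15 and 20 in the other fits that left out 1 mouse.

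Of the homeostatic microglia list, 2 of 14 genes were called higher and 5 more passed, with a median log2 change of 0.54, so this list also rose in part. Fcrls, an Fc receptor-like scavenger receptor that marks microglia (chr3:87250758-87263738), was at 21.4, 23.4 and 24.3 CPM against 54.2, 63.8, 69.6 and 64.4 CPM, a log2 change of 1.45 (SE 0.10, edgeR adjusted p = 9.9e-05). Olfml3, Csf1r, Cx3cr1, Tgfbr1 and Mertk passed with changes of 0.57 to 0.83. P2ry12, the purinergic receptor by which microglia sense ATP, was at 39.3, 34.6 and 41.2 CPM against 36.0, 39.3, 35.7 and 44.0 CPM. Its groups overlapped and the log2 difference was 0.02 (SE 0.10, edgeR adjusted p = 0.955). Tmem119, Siglech, Sall1, P2ry13, Selplg and Gpr34 did not pass either, with differences of 0.07 to 0.51. Only 1 member was called without E3H_2, PS/E3H_3 or PS/E3H_4.

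The promoters of 3 raised genes (Itgax, Fcrls and Trem2) and 2 lowered genes (Six5 and Cdkn2a) are shown because each holds a word searched for in all promoters, so the same words occur in both directions. The sequences are the 250 bases before a RefSeq start of each gene (GRCm38.p6). They are written 5′ to 3′ on the strand of the gene, with the word in capitals. For Cdkn2a the start used lies inside the gene, which spans chr4:89274471-89294653. Itgax (chr7:128129300-128129549, plus strand) holds TGACTCA, the word that AP-1 binds, on the opposite strand, beginning 56 bases before the start. Fcrls (chr3:87263525-87263774, minus strand) holds GAGGAAG, the core that PU.1 binds, on the gene's strand at 144 bases, and Trem2 (chr17:48346151-48346400, plus strand) holds it on the opposite strand at 41 bases. Six5 (chr7:19094294-19094543, plus strand) holds TGACTCA on the opposite strand at 173 bases, and Cdkn2a (chr4:89282193-89282442, minus strand) holds GAGGAAG on the gene's strand at 20 bases.
Itgax: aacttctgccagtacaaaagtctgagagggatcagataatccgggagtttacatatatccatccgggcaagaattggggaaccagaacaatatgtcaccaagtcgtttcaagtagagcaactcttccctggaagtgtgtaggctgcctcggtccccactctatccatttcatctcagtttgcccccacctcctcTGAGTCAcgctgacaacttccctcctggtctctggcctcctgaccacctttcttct
Fcrls: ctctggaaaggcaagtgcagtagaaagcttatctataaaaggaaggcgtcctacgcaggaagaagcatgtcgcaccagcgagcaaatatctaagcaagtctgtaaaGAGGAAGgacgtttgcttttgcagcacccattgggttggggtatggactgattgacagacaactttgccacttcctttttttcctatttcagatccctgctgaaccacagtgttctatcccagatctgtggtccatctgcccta
Trem2: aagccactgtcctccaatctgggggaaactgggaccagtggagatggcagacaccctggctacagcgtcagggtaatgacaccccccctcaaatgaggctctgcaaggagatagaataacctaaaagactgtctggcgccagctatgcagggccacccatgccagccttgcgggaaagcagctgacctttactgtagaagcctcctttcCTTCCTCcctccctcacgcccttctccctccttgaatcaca
Six5: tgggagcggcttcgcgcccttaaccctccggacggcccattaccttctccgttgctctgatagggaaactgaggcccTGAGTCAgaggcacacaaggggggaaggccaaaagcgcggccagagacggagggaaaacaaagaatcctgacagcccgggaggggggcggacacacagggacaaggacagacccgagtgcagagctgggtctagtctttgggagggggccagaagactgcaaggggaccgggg
Cdkn2a: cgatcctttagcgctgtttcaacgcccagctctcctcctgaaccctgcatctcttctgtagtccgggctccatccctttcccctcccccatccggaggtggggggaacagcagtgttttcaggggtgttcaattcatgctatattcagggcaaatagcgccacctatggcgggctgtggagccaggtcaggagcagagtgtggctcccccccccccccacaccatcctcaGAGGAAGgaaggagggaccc

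A RefSeq promoter, from 250 bases before to 50 after the start, was matched for 188 of the 254 raised genes, 16 of the 27 lowered genes and 13819 genes tested. On either strand, GAGGAAG was found in 57 promoters of raised genes (30.3%), against 18.8% of those of lowered genes, 15.9% of those of all genes tested and 15.4% of all 27025 genes with a promoter in RefSeq. The shares for TGACTCA were 9.04%, 6.25%, 4.86% and 5.95%, those for GAAANNGAA, the interferon response element, 16%, 6.25%, 8.94% and 9.76%, and those for CACGTG, the E-box of TFEB and MITF, 7.45%, 6.25%, 10.6% and 8.09%. Matches of different words may overlap in a promoter, and each word was counted on its own. A match of letters is a description and not a bound site. Spi1, which encodes PU.1, was itself called higher (log2 change 1.38, SE 0.19), at 2.83, 1.98 and 2.67 CPM against 5.12, 7.44, 6.34 and 7.05 CPM. Spi1 and Irf8 (1.06, SE 0.23) are named after their values were seen.

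**Figure D2:**
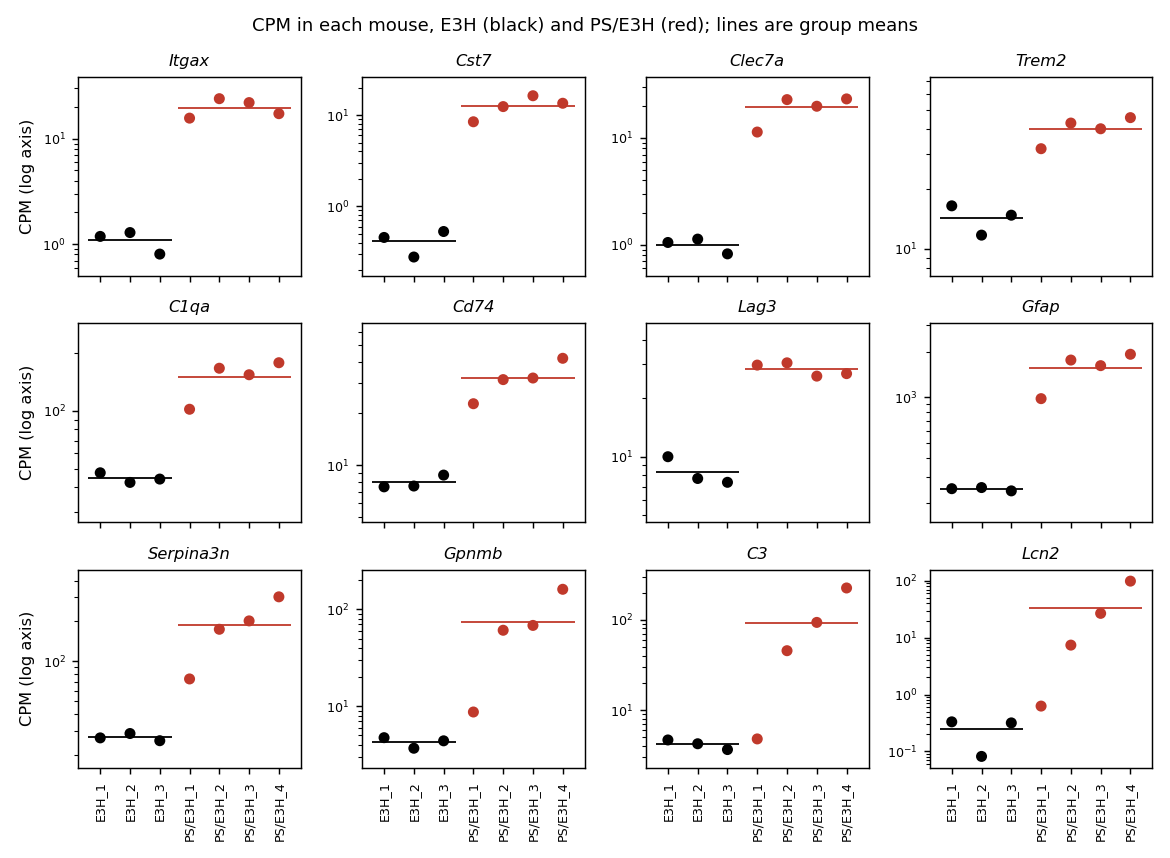
CPM on a log axis in each of the 3 E3H mice (black) and 4 PS/E3H mice (red) for 12 genes called higher, with lines at the group means. The groups are clearly apart for Itgax, Cst7, Clec7a, Lag3 and Gfap, whereas Gpnmb, C3 and Lcn2 in PS/E3H_1 lie near E3H and climb to 161, 224 and 99.0 CPM in PS/E3H_4.

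Complement and Fc receptor transcripts were raised. Of 15 complement genes 8 were called higher and 2 more passed, Itgam among them (median log2 change 1.56). C1qa, a subunit of the C1q complex that starts the classical pathway, was at 47.7, 42.5 and 44.2 CPM against 102, 166, 154 and 177 CPM (log2 change 1.74, SE 0.16, edgeR adjusted p = 0.0011). C1qb and C1qc, the partner subunits, rose by 1.58 and 1.56. C4b, the next component, was at 59.4, 66.3 and 65.2 CPM against 147, 360, 364 and 356 CPM (2.27, SE 0.27). C3, the central component, was at 4.68, 4.25 and 3.66 CPM against 4.80, 45.4, 93.4 and 224 CPM, so that PS/E3H_1 exceeded the highest E3H mouse by only a small margin. Its log2 change was 4.46 (SE 0.98, edgeR adjusted p = 0.030). The receptors C3ar1 (1.83) and Itgb2 (1.57) and the inhibitor Serping1 (1.19) were also called, and C5ar1, C2, C1ra, C1s1 and Cfb did not pass. All 5 Fc receptor genes (Fcgr1, Fcgr2b, Fcgr3, Fcgr4 and Fcer1g) were called, with changes of 1.34 to 2.35. Called complement members numbered 5 without E3H_1 or E3H_3, and 6 to 9 in the other fits that left out 1 mouse.

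Of 14 Toll-like receptor genes and their partners, 7 were called (Tlr1, Tlr2, Tlr7, Tlr13, Cd14, Ly86 and Cd180), with changes of 1.56 to 2.37. Tlr2, the receptor for bacterial lipoproteins, was at 1.05, 2.27 and 2.29 CPM against 4.43, 11.1, 7.33 and 12.3 CPM. Of 6 genes of the phagocyte NADPH oxidase, 4 were called, among them Cybb, Cyba and Ncf1, and Cybb, the catalytic subunit, was at 0.99, 0.93 and 0.86 CPM against 2.72, 7.89, 7.62 and 10.04 CPM (2.93, SE 0.39, edgeR adjusted p = 0.0045). Among 26 tested chemokine genes 7 were called (Ccl3, Ccl4, Ccl6, Ccl8, Ccl9, Cxcl5 and Cxcl16). Cxcl14 passed at 0.32, and Cx3cl1, the neuronal ligand of the microglial receptor CX3CR1, passed in the other direction: it was at 619, 566 and 604 CPM against 546, 390, 417 and 411 CPM (-0.44, SE 0.11, edgeR adjusted p = 0.043). Called counts without 1 E3H mouse were 4 or 5 for the Toll-like receptors, 1 to 4 for the oxidase and 1 to 3 for chemokines, and without PS/E3H_1 they were 9, 6 and 12.

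Antigen presentation genes were called in class II and not in class I. For class II, 5 of 7 genes were called (Cd74, H2-Aa, H2-Ab1, H2-Eb1 and H2-DMb1). Cd74, the invariant chain that guides class II molecules to the endosome, was at 7.46, 7.54 and 8.74 CPM against 22.8, 31.5, 32.2 and 42.0 CPM (2.02, SE 0.18, edgeR adjusted p = 0.0010). Ciita, the master activator of class II genes, did not pass (0.81, SE 0.48, edgeR adjusted p = 0.37), nor did H2-DMa (0.05). For class I, none of 14 genes was called and 4 passed: B2m, the shared light chain, was at 105, 104 and 103 CPM against 121, 198, 210 and 214 CPM, and H2-D1, H2-K1 and Psmb8 changed by 0.82 to 0.99. Class II calls fell to 2 without any 1 of the E3H mice and to 3 without PS/E3H_4. For class I, 2 genes were called without PS/E3H_1, and 1 without PS/E3H_3 or with all 21 mice in 1 fit. The 2 lists were not tested against each other.

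Interferon-response genes did not pass: 0 of 28 reached an adjusted p under 0.05 in edgeR, although 27 had a value above 0 and the median log2 difference was 0.61. Ifit3 was at 14.8, 14.5 and 11.8 CPM against 16.4, 20.5, 24.2 and 33.0 CPM (0.78, edgeR adjusted p = 0.053). Its groups did not overlap, and PS/E3H_4 was highest. Without PS/E3H_1 4 members were called, and DESeq2 called 2. Ifi44l and Gbp2b, interferon-inducible genes outside the list, were called and are described with chromosome 3 below. Epsti1 and Ifi30, also outside the list and named after their values were seen, were called higher too. Genes outside the list were not examined for interferon response as a set.

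The immune checkpoint receptor Lag3, which binds class II molecules (chr6:124904361-124911705), was among the most even of the raised genes. It was at 9.99, 7.71 and 7.37 CPM against 29.7, 30.5, 26.1 and 26.8 CPM (1.76, SE 0.12, edgeR adjusted p = 0.00015), and the highest PS/E3H mouse exceeded the lowest by 1.17 times. Pdcd1 (PD-1) was at 0.303, 0.131 and 0.198 CPM against 1.24, 1.77, 1.80 and 1.47 CPM (2.88, SE 0.37). Havcr2 (TIM-3) and Cd274 (PD-L1) were called at 1.23 and 1.04, and Vsir passed at 0.84. Of 14 tested T-cell genes 0 passed in edgeR, although 12 had a value above 0 and the median log2 difference was 0.68. Their summed CPM was 18.2 to 21.2 in E3H and 18.4 to 25.7 in PS/E3H mice, and Cd3d, Cd8b1, Cd2 and Gzmb were below the filter. Checkpoint calls were 2 without any 1 of the E3H mice or PS/E3H_4.

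Lysosomal genes rose broadly but by less. Of 19, 3 were called (Ctss, Ctsh and Ctsc) and 14 more passed, with a median of 0.65. Without E3H_1, E3H_3 or PS/E3H_4 only 1 was called, and 2 without E3H_2 or PS/E3H_2. Ctss, a cathepsin of microglia, was at 81.3, 81.9 and 87.7 CPM against 157, 244, 245 and 288 CPM (1.48, SE 0.17). Man2b1, a lysosomal mannosidase, had one of the smallest adjusted p of all genes at a change of 0.74 (SE 0.07, edgeR adjusted p = 0.0010), at 56.2, 56.7 and 52.8 CPM against 88.8, 88.4, 96.7 and 94.6 CPM. Grn, Lamp1, Lamp2, Npc2 and Hexa passed with changes of 0.50 to 0.79. On the length-scaled FPKM scale, the most abundant raised gene was the cathepsin Ctsd, at a group mean of 181 FPKM in E3H and 472 FPKM in PS/E3H mice. It was followed by Gfap (55.3 and 345), Mt2 (68.0 and 202), Apod (82.4 and 186) and Ctss (57.7 and 159).

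Further myeloid surface receptors were called higher. Apart from Ms4a7 they are on no list and are named after their values were seen, and members of their families that were not called are not given. They were the Ms4a genes (Ms4a4a, Ms4a6c, Ms4a6d and Ms4a7, 1.75 to 3.15), the SLAM genes (Ly9, Cd84, Cd48, Slamf7, Slamf8 and Slamf9, 1.48 to 2.33), the Cd300 genes (Cd300c2, Cd300lb and Cd300lf, 1.74 to 4.23), and the sialic acid receptors Siglecf (2.56) and Cd22 (3.26). Ly9 was at 1.44, 1.23 and 1.24 CPM against 3.08, 7.05, 6.62 and 9.40 CPM. Cd22 was at 0.29, 0.70 and 0.56 CPM against 2.55, 6.52, 5.46 and 5.17 CPM. For both genes the groups did not overlap and PS/E3H_1 was the lowest PS/E3H mouse. In the Trem family, Treml2 was called (1.98, SE 0.42, edgeR adjusted p = 0.027), at 0.621, 0.555 and 0.476 CPM against 1.08, 2.51, 1.47 and 3.65 CPM. It was called in 2 of 7 fits that left out 1 mouse, those without PS/E3H_1 or PS/E3H_3, and not with limma, without the low-count filter or with the replicate block. Treml1 did not pass (edgeR adjusted p = 0.67) and Trem1 was below the filter, with 7 counts in all over E3H and 37 over PS/E3H mice. The near-identical Bcl2a1a, Bcl2a1b and Bcl2a1d genes were called, but 69 to 80% of their 50-base stretches occur in more than 1 gene, so their separate values are uncertain.

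Markers of other immune cells differed in how many mice they were high in. The summed CPM of 8 border macrophage markers was 12.2 to 16.0 in E3H mice and 19.5, 25.7, 35.3 and 37.1 in PS/E3H mice, with no overlap. Of these 8 border macrophage markers 3 were called (Mrc1, F13a1 and Ms4a7), with 0 called without E3H_1, E3H_3 or PS/E3H_4, 1 without E3H_2 and 2 without PS/E3H_3. The summed CPM of 9 tested and 2 untested neutrophil and monocyte genes was 3.48 to 4.64 in E3H mice, 3.53 to 7.65 in PS/E3H mice 1 to 3, and 45.9 in PS/E3H_4, where S100a8, S100a9 and Ngp stood at 9.01, 11.4 and 10.5 CPM. None of those 9 genes passed in edgeR, and 3 were called without PS/E3H_1. PS/E3H_4 also had the highest level of 165 of the 254 raised genes, among them Lcn2, Mmp3, C3, Gpnmb and Lyz2. Whether the neutrophil transcripts contribute to those values was not tested, and without that mouse 132 genes were called higher. The antibody genes Igkc and Igha were called at 4.33 and 2.97. Igkc was at 0.63, 0.62 and 0.25 CPM against 0.27, 24.9, 9.42 and 5.56 CPM, with Jchain at 0.33, 0.31 and 0.53 against 0.50, 5.73, 2.85 and 1.31 CPM. PS/E3H_1 lay inside the E3H range for Igkc, and 0 of 4 tested B-cell genes passed. The 4 globin genes and Alas2 were at 0.70 to 0.78 below E3H on the log2 scale without passing, and 5 of the 6 genes of the blood list were called lower without PS/E3H_4, which had the highest globin levels of the PS/E3H mice. Over the blood list the summed CPM was 571 in E3H_1 and 528 in PS/E3H_4.

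Astrocyte genes were raised, those of the reactive state by more in their median than those of the homeostatic state. Gfap (chr11:102887336-102900912) was at 250, 255 and 242 CPM against 983, 1766, 1622 and 1928 CPM (2.66, SE 0.20, edgeR adjusted p = 0.00020). Of 15 reactive astrocyte genes 7 were called, with a list median of 1.62. Serpina3n, a secreted protease inhibitor, was at 26.7, 28.7 and 25.4 CPM against 73.5, 173, 200 and 302 CPM (2.80, SE 0.37), and Vim and Osmr, the receptor for oncostatin M, rose by 1.67 and 1.62. Lcn2, an iron-siderophore carrier, was at 0.33, 0.08 and 0.32 CPM against 0.63, 7.41, 26.8 and 99.0 CPM, which is a 158-fold range among the PS/E3H mice. Its fitted change of 7.05 (SE 1.56, edgeR adjusted p = 0.030) averages over very unequal mice. Steap4, Cd44, Cp, Aspg, S1pr3, Hspb1, Stat3 and Cxcl10 did not pass. Called members numbered 3 without any 1 of the E3H mice, and 13 without PS/E3H_1. Of 14 homeostatic astrocyte genes none was called but 11 passed (median 0.41), among them the water channel Aqp4 (0.95), the connexin Gjb6 (0.88), Glul (0.48) and Slc1a3 (0.38).

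Oligodendrocyte genes showed smaller gains, with 8 of 16 passing and none called (median 0.28). Mbp, a main protein of myelin, was at 2322, 2553 and 2311 CPM against 3241, 3506, 3387 and 3382 CPM (0.50, SE 0.07, edgeR adjusted p = 0.0044). Cldn11, Mag, Mog, Cnp, Mal and Mobp passed at 0.28 to 0.63. Among precursor genes Bcas1 alone of 7 passed (0.58).

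**Figure D3:**
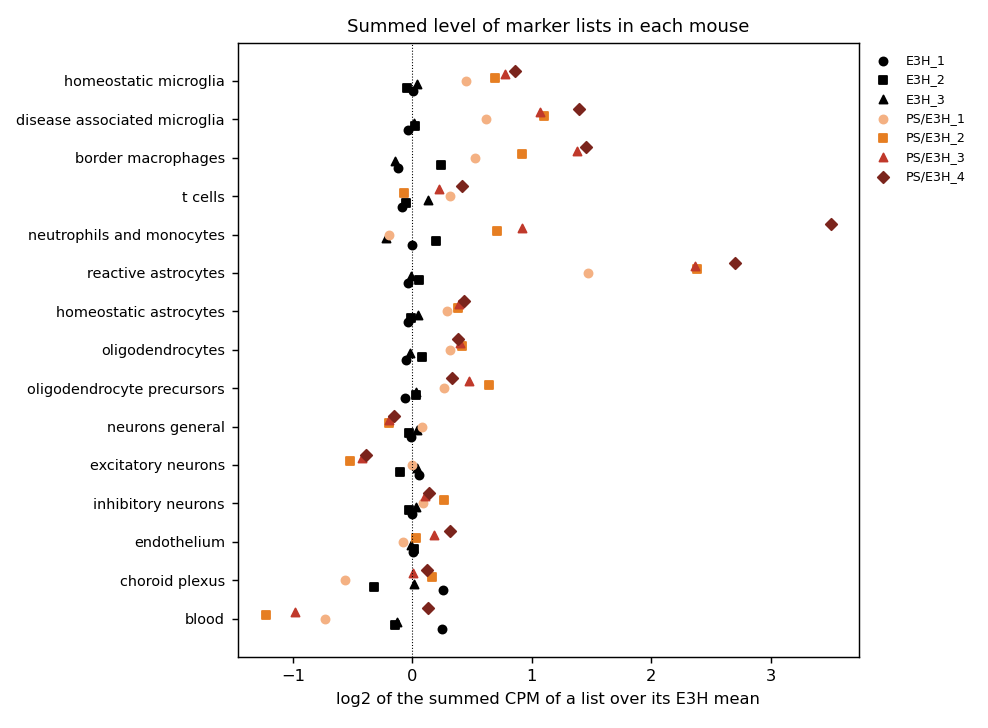
Log2 of the summed CPM of 15 marker lists in each mouse over the E3H mean, with E3H mice in black and PS/E3H mice 1 to 4 in light orange to dark red. Microglial and reactive astrocyte sums are above E3H in all 4 PS/E3H mice with PS/E3H_1 lowest, and the neutrophil and monocyte sum stands apart in PS/E3H_4 at 45.9 CPM.

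Of the neuronal markers few passed, but medians of excitatory and hippocampal lists lay below 0. None of 14 pan-neuronal genes passed (median -0.12), and their summed CPM was 10170 to 10640 in E3H mice, 10930 in PS/E3H_1 and 9034 to 9284 in the other PS/E3H mice. Of 13 excitatory neuron genes 2 passed, the NMDA receptor subunits Grin2b and Grin2a, and the list median was -0.39. In 5 of the 13 the groups did not overlap, with PS/E3H lower, against 9.46% of all genes tested. The summed CPM of this list was 5025 in PS/E3H_1 and 3498 to 3851 in the other PS/E3H mice. Grin2b was at 264, 230 and 246 CPM against 199, 163, 172 and 157 CPM (-0.51, SE 0.09, edgeR adjusted p = 0.013), and Grin2a changed by -0.54. Inhibitory markers Pvalb and Vip passed higher (0.57 and 0.54), while Gad1, Gad2 and Slc32a1 did not pass. Among 12 markers of hippocampal subfields, Lct was called lower (-1.40, SE 0.26, edgeR adjusted p = 0.017), at 7.09, 5.67 and 5.16 CPM against 3.39, 2.34, 1.66 and 1.64 CPM, and was not called without any 1 of the E3H mice. Dsp and Neurod1, genes of dentate granule cells, passed at -0.81 and -0.62, and the list median was -0.47. In 6 of the 12 the groups did not overlap, with PS/E3H lower, against 9.46% of all genes tested. Egr3 alone of 16 immediate early genes passed (-0.92), and without PS/E3H_1 5 of them were called lower. The striatal gene Adcy5 passed at -0.26, and the endothelial receptor Kdr at -0.72.

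Of 16 transcripts of the tau and APP pathway Prnp passed and 15 did not. In 3 of the 16 the groups did not overlap, with PS/E3H higher, against 9.94% of all genes tested. Mouse Mapt was at 469, 479 and 491 CPM against 487, 457, 463 and 427 CPM (-0.07, SE 0.06, edgeR adjusted p = 0.61), and its groups overlapped. The human transgene is not a gene of this table, and neither human MAPT nor human APOE was analysed here. Counts on mouse Apoe, which is replaced in all 7 mice, were low at 11.4 to 12.9 CPM in E3H and 9.93 to 14.3 CPM in PS/E3H mice. Prnp, the prion protein gene whose promoter drives the transgene (chr2:131909928-131938429), was at 902, 876 and 952 CPM against 1754, 1409, 1405 and 1558 CPM (0.75, SE 0.09, edgeR adjusted p = 0.0025). A processed pseudogene 4969 bases away, Lamr1-ps1 (chr2:131904086-131904959), had 0 counts in all 3 E3H mice and 111, 54, 44 and 79 counts in PS/E3H mice, at least 24.8-fold higher against a floor of 3 counts per library. It also had 0 counts in the E2H and E4H mice and 44 to 136 counts in all 12 PS19 mice. The genes around it did not pass, including Rassf2 (0.21) and Slc23a2 (0.26). Prnp was likewise higher with PS19 on the other alleles, at 1690 to 1900 CPM in PS/E2H and 1490 to 1930 CPM in PS/E4H against 821 to 1060 CPM in E2H and E4H mice, scaled over all 21 mice. How far reads of the transgene fall on Prnp was not tested.

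In a stretch of chromosome 3 that was set after the values were seen, 3 of 55 genes tested were called higher. The stretch was chosen on the same values as the calls, so this count does not test whether raised genes cluster there. Gbp2b, an interferon-inducible GTPase, had 0, 4 and 0 counts in E3H mice and 94, 247, 320 and 354 counts in PS/E3H mice. Ifi44l had 0 counts in E3H mice and 24 to 85 counts in PS/E3H mice (at least 21-fold higher), and Mcoln2, a lysosomal channel, 0 counts and 6 to 33 counts (at least 7.78-fold higher). Gbp2b had at most 4 counts in all 9 mice without PS19 and 94 to 409 counts in all 12 with it, on every APOE allele. Mcoln2 was less even, with 0 to 4 counts in E2H and E4H mice, 6 to 13 in PS/E2H and 0 to 11 in PS/E4H mice. The PS19 strain background and the tau transgene cannot be told apart for these genes.

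Genes that respond to glucocorticoids and fasting included 7 called of 15, but 3 without E3H_1. Mt2 and Mt1, the metallothioneins that bind zinc, rose by 1.59 and 1.20, with Mt1 at 98.5, 83.4 and 82.7 CPM against 173, 176, 210 and 249 CPM. Angptl4 was at 1.78, 1.96 and 1.44 CPM against 3.83, 3.61, 4.11 and 4.05 CPM. Plin4, a lipid droplet coat protein, rose by 3.57 (SE 0.49, edgeR adjusted p = 0.0048), at 2.28, 4.38 and 2.42 CPM against 28.8, 12.8, 62.8 and 38.8 CPM. Sgk1, a kinase induced by glucocorticoids, was at 61.9, 66.4 and 63.8 CPM against 218, 58.2, 229 and 212 CPM, so PS/E3H_2 lay below every E3H mouse and the other PS/E3H mice far above. PS/E3H_2 was likewise the lowest PS/E3H mouse for Plin4, Fkbp5, Tsc22d3 and Zbtb16, of which the last 3 did not pass (edgeR adjusted p = 0.091, 0.11 and 0.20). On the log2 scale PS/E3H_1 stood, over the called members of this list, at a median of 0.961 of the way from E3H to the other PS/E3H mice, against 0.585 for the disease-associated microglia list, 0.481 for complement and 0.437 for class II. It was still the lowest PS/E3H mouse for Mt1 and for Cdkn1a, which stood at 21.4 CPM there against 38.4, 41.3 and 39.1 CPM in the others.

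Among lipid genes, Abca1, the cholesterol exporter, was at 36.0, 37.3 and 35.9 CPM against 56.8, 95.4, 110 and 134 CPM (1.44, SE 0.23, edgeR adjusted p = 0.0094). Apod and Apoc1 were called at 1.20 and 1.71, and Clu, Plin2 and Plin3 passed at 0.57 to 0.72. Without E3H_1 or E3H_3 no lipid transport gene was called. Cholesterol synthesis moved the other way. Of 15 genes 10 passed lower and none was called, with a median of -0.49. In all 15 the groups did not overlap, with PS/E3H lower, against 9.46% of all genes tested. Sqle, which oxidizes squalene, was at 73.1, 77.5 and 79.0 CPM against 56.1, 58.1, 48.3 and 42.2 CPM (-0.58, SE 0.10, edgeR adjusted p = 0.015). Srebf2, the transcription factor of the pathway, changed by -0.42.

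Among stress and growth genes, Cdkn1a, the p21 cell cycle inhibitor, and Atf3, a factor induced by axon injury, were called higher at 1.29 and 1.56, whereas Cdkn2a, the locus of p16 and p19, was called lower (-1.34, SE 0.27, edgeR adjusted p = 0.021). Cdkn2a was at 1.45, 2.27 and 1.94 CPM against 0.78, 0.60, 0.85 and 0.73 CPM, and was not called without any 1 of the E3H mice or PS/E3H_4. None of 14 proliferation genes and 11 heat-shock genes passed in edgeR. Of 78 cytosolic ribosomal protein genes 30 passed higher (median 0.28) and none was called, of 82 respiratory chain genes 1 passed (Ndufa9, 0.28), and of 13 mitochondrial genome transcripts none did. The clock genes Arntl and Npas2 passed lower (-0.44 and -0.40) and Bhlhe41 higher (0.38).

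**Figure D4:**
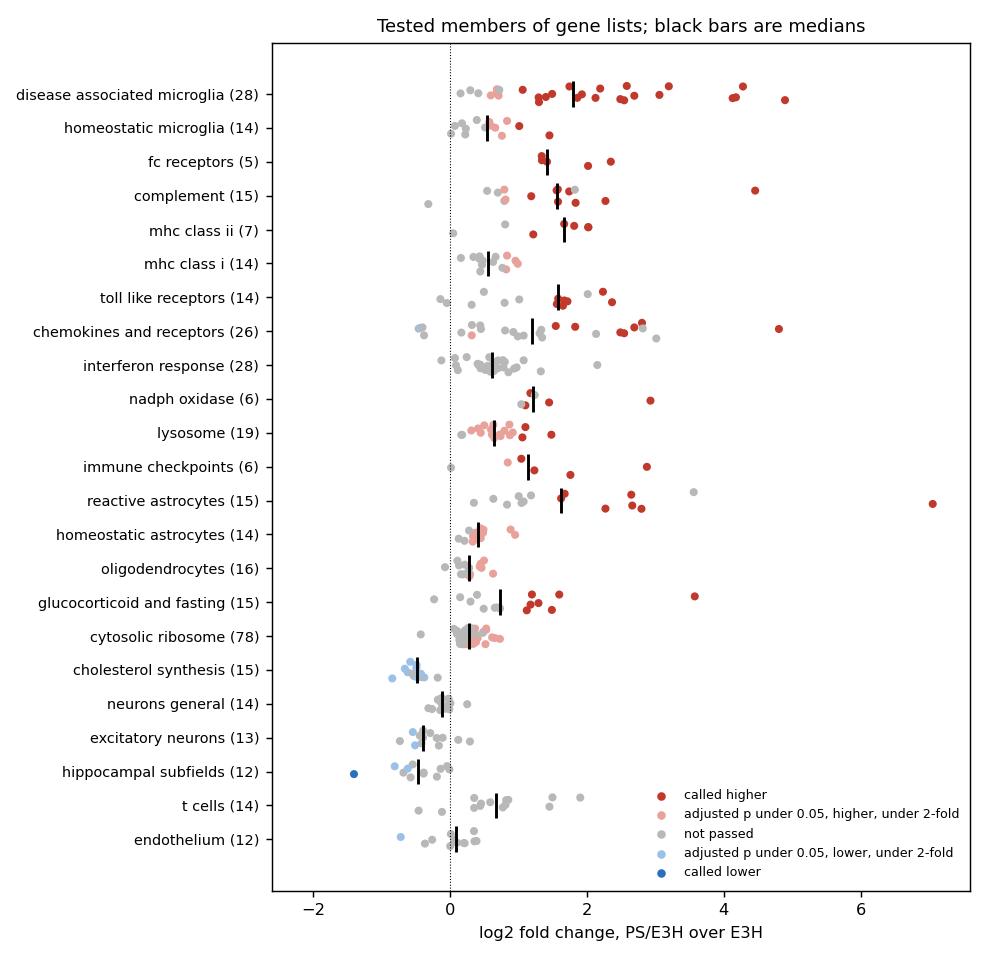
Each point is a tested member of 1 of 23 gene lists (number tested in brackets) at its log2 fold change, coloured by its call, with the list median as a black bar. Disease-associated microglia, class II, complement and reactive astrocyte lists have medians of 1.56 to 1.80, and the cholesterol synthesis, excitatory neuron and hippocampal lists lie below 0.

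The lowered genes were fewer, and 18 of 27 were under 5 CPM in both groups. The largest changes were in genes of other organs. Prl, the pituitary hormone prolactin, was at 4.61, 3.02 and 2.02 CPM in E3H mice and had 0 counts in all 4 PS/E3H mice, at least 70.5-fold lower (edgeR adjusted p = 0.0011). Over the other 6 mice without PS19 it ranged from 0 to 423 counts, and 1 PS/E4H mouse had 153. Alb, serum albumin of liver, was at 7.48, 4.57 and 0.32 CPM against 0 counts, at least 90.4-fold lower. Alb too varied in the other 6 mice without PS19, from 0 to 264 counts, and 1 PS/E4H mouse had 15. The other pituitary genes tested (Chgb, Pomc and Tshb) did not pass, and Gh, Cga, Lhb and Fshb were below the filter. Whether a trace of adjoining tissue contributed to Prl was not tested. Among brain-expressed genes, Six5, a homeobox factor, was at 4.83, 3.79 and 3.57 CPM against 1.55, 1.74, 1.88 and 2.01 CPM (-1.18, SE 0.19, edgeR adjusted p = 0.011), with no overlap. Scaled over all 21 mice, its mean was 3.99 CPM in E3H, but 2.06 CPM in E2H and 2.65 CPM in E4H mice. On APOE4 and APOE2 Six5 changed by -0.23 and -0.54 and did not pass. Slc23a3 (-2.02) and Krt2 (-1.75), a keratin, were called at 0.24 to 2.84 CPM. Nr4a3, an activity-induced nuclear receptor, was at 42.3, 34.9 and 37.4 CPM against 29.4, 11.7, 15.8 and 16.2 CPM (-1.06, SE 0.25, edgeR adjusted p = 0.034). Ntf3 (neurotrophin-3), Slc26a4 (pendrin) and Slc9a4, a sodium-proton exchanger, were called at -1.11 to -1.35. These and Nr4a3 are named after their values were seen.

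Some lowered genes share sequence with others, so their values are uncertain. Gm21887, on chromosome X, was at 24.9, 16.9 and 13.5 CPM against 7.58, 5.65, 5.02 and 6.65 CPM (-1.57, SE 0.21, edgeR adjusted p = 0.0044), and 59.7% of its 50-base stretches occur elsewhere among genes. Gm47283, on chromosome Y, moved with it (-1.31, SE 0.22). On APOE4 both were called in the other direction, at 2.66 and 2.83, but from low levels. Scaled over all 21 mice, Gm21887 was at 0.21 to 0.33 CPM in E4H and 0.24 to 2.85 CPM in PS/E4H mice. Gm47283 was at 0.21 to 0.45 CPM and 0.26 to 4.07 CPM. For both genes every PS/E4H mouse was below every PS/E3H mouse. The pseudogene Pisd-ps1 was at 229, 184 and 135 CPM against 79.4, 106, 103 and 62.9 CPM (-1.06, SE 0.20). The noncoding genes Gm48619, Gm43127, Gm44280 and Gm30371 and the long imprinted RNA Mirg were also called lower. AL805899.1 and Gm29291 were called higher from 0 counts in E3H mice, with at most 46 counts in any PS/E3H mouse.

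The raised genes were not raised evenly over the PS/E3H mice. PS/E3H_1 was the lowest of its group in 209 of the 254 genes, and the median log2 difference from the E3H mean, with 0.1 CPM added, was 0.92 in PS/E3H_1, 1.58 in PS/E3H_2, 1.57 in PS/E3H_3 and 1.81 in PS/E3H_4. In 17 raised genes, C3 among them, PS/E3H_1 was less than 0.25 of the way from E3H to the other PS/E3H mice. In 60 it was past 0.75 of the way. The highest PS/E3H mouse was a median of 2.06 times the lowest, under 1.5 times in 26 genes such as Lag3, Fcrls, Angptl4, Trem2 and Mt1, and over 10 times in 12, among them Lcn2, Mmp3, Igkc, C3, Gpnmb and Slc6a4. Slc6a4, the serotonin transporter, was at 2.08, 14.1, 2.16 and 0.96 CPM in PS/E3H mice and at most 0.23 CPM in E3H mice. Over the 9 mice without PS19 of all alleles it ranged from 0 to 717 counts, so its spread there was wide too. Mmp3 was at 0.21, 1.84, 1.48 and 21.3 CPM, with at most 4 counts in any E3H mouse.

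The same contrast was read on the other APOE alleles, where the mice are different ones and, by the study's methods, E4H, PS/E2H and PS/E4H include females. No sample is shared between the alleles. On APOE4, 500 genes were called higher (2.4%) and 121 lower (0.581%), and on APOE2, 93 higher (0.451%) and 7 lower (0.034%). Of the 254 genes raised on APOE3, 209 were also called higher on APOE4, which is 82.3% of the APOE3 list and 41.8% of the APOE4 list, and 51 on APOE2 (20.1% and 54.8%), with 50 called on all 3. The raised genes had the same sign in 249 of 251 tested on APOE4 and 246 of 249 on APOE2. Their median changes there were 1.76 and 1.17, against 1.575 on APOE3. The share of all genes tested with the same sign was not computed, and all 3 contrasts share the PS19 strain background and paralysis. Of the 27 lowered genes 9 were also called lower on APOE4 (33.3% and 7.44%) and 2 on APOE2 (Krt2 and Nr4a3, 7.41% and 28.6%). In 30 of the raised genes the adjusted p was 0.05 or more on both other alleles.

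**Figure D5:**
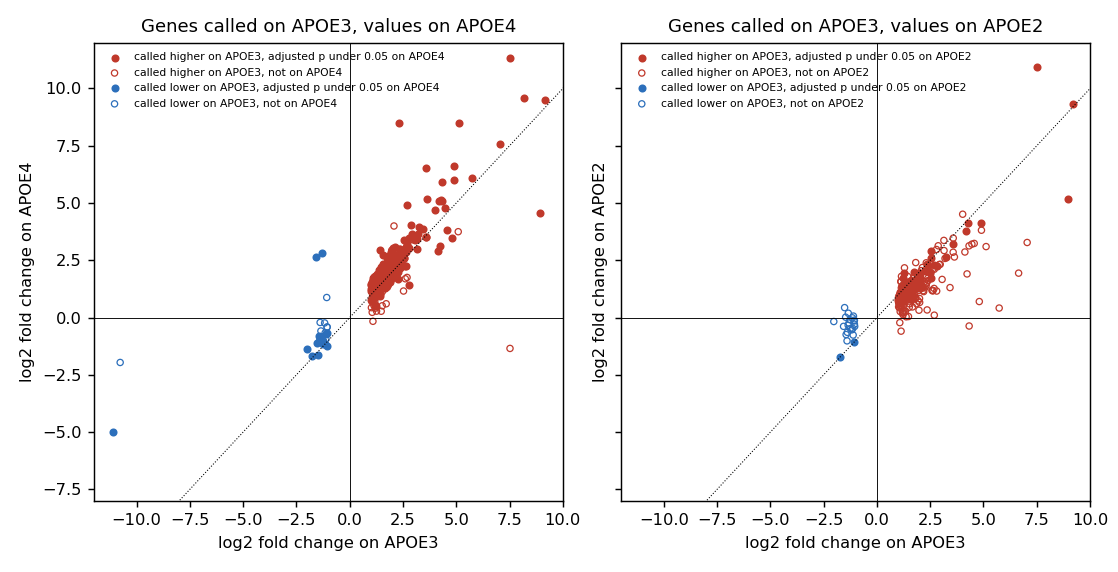
Log2 fold change of PS19 over parental mice on APOE4 (left) and APOE2 (right) against that on APOE3 for the genes called on APOE3, filled where the adjusted p on the other allele is under 0.05, with the dotted line marking equal change. Most raised genes (red) lie above 0 on both, 249 of 251 on APOE4 and 246 of 249 on APOE2. The share over all genes tested was not computed. The 2 lowered genes (blue) called higher on APOE4, Gm21887 and Gm47283, rose there from low levels in E4H mice.

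A difference between alleles in the tau effect did not pass for any gene. The interaction of PS19 with APOE4 against APOE3 gave 0 genes (0.0%) of 22212 at an adjusted p under 0.05 in edgeR, with 847 at an unadjusted p under 0.05 and a smallest adjusted p of 0.43. DESeq2 gave 11. The interaction with APOE2 against APOE3 gave 0 genes (0.0%) of 22133, with 1265 at an unadjusted p under 0.05 and a smallest adjusted p of 0.091, and DESeq2 gave 8. The smallest p-values were those of Gm21887, Ms4a4a and Gm47283 for APOE4 and of Gm28043, Capn11 and Isg15 for APOE2. Isg15, a ubiquitin-like interferon product, changed by 0.11 on APOE3 and by 2.11 on APOE2 (difference 2.003, SE 0.35, edgeR adjusted p = 0.31). Serpina3n was raised on all alleles, by 2.80 on APOE3, 1.41 on APOE4 and 2.26 on APOE2. A p that misses the threshold in these groups of 3 and 4 mice does not show that the alleles act alike.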

How the data were processed

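The authors deposited a table of read counts per gene and a table of FPKM values for 21 forebrain libraries. Per the study's methods, poly(A) libraries were trimmed with Cutadapt, aligned with HISAT2 to mouse GRCm38 and assembled with StringTie, which gave the deposited FPKM values. How the deposited counts were derived, and whether strand was used, is not given in the sources used here. Coordinates and symbols were taken from GENCODE M21.

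Counts of the 3 E3H and 4 PS/E3H mice were filtered with filterByExpr (minimum count 10, total 15), scaled by TMM and tested with edgeR 4.0.16 (quasi-likelihood, R 4.3.3) with Benjamini-Hochberg adjustment. The threshold was an adjusted p under 0.05 and at least 2-fold. Interactions used all 4 groups of 2 alleles. The edgeR fits of the APOE3 contrast and of the interaction with APOE4 were tested on simulated counts. The other steps were not. Alternatives were DESeq2 1.42.0, its size factors, other filters, limma 3.58.1 on log2(FPKM + 1) or log2(FPKM + 0.1), all 21 mice in 1 fit, a replicate block and leaving out each mouse. Calls per list without single mice and with the block were added after seeing the data.

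Genes were named by rule: the 10 called with the smallest adjusted p and the 5 with the largest change in each direction, up to 4 called members per list with other members given only with values, 12 genes of interest, and the 3 smallest interaction p-values where none passed. The members and lists were chosen with earlier results of these data known. The counting floor was 3 counts per library, which covers counting error only. Some members of the lists are counted but not reported by name here.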

Additional observations from a re-analysis of the deposited data

Results flagged for a closer look

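In 9 of 129 named genes and list sums examined, 1 PS/E3H mouse stood apart from the other 3 of its group by Dixon's test, and chance flags about 1 in 20. Mmp3, a matrix metalloproteinase, was at 21.3 CPM in PS/E3H_4. C4b was at 147 CPM and Cdkn1a at 21.4 CPM in PS/E3H_1, both below the other PS/E3H mice. The summed CPM of the neutrophil and monocyte list was 45.9 in PS/E3H_4, where that of the mitochondrial genome transcripts was 71270. The summed CPM of the pan-neuronal list was 10930 and that of the thalamus and hindbrain list 209.9 in PS/E3H_1. The summed CPM of the hypothalamus list was 158.1 and that of the integrated stress list 873.3 in PS/E3H_2.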

How the results depend on the processing

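Higher and lower calls on APOE3 were 254 and 27. They were 162 and 11 with no low-count filter, 57 and 3 with limma on log2(FPKM + 1), 157 and 30 with limma on log2(FPKM + 0.1), 354 and 49 with DESeq2, and 712 and 429 with no fold limit. Leaving out 1 mouse gave 75 to 431 and 2 to 63. With the replicate block they were 141 and 16, although same-numbered mice did not deviate together (correlations 0.005, 0.044 and -0.011), so the numbers were not taken to pair the mice. On APOE4 the 621 calls became 133 with limma on log2(FPKM + 1), 3252 with no fold limit and 384 to 702 without 1 mouse. On APOE2 the 100 calls became 270 with DESeq2, 55 with no filter, 34 with limma on log2(FPKM + 1), 208 with all 21 mice in 1 fit, 155 with no fold limit, 150 with the replicate block and 30 to 99 without 1 mouse. The interactions, 0 in edgeR, gave 11 and 8 genes in DESeq2 and 0 to 3 and 0 to 2 without 1 mouse. The log2 fold change of Apoe ranged from -0.12 to 0.056 without 1 mouse. The log2 fold change of Gm28043 was -0.012 with the replicate block and -0.082 to 0.14 without 1 mouse. The log2 fold change of Isg15 was -0.19 and -0.20 to 0.30. None of these 3 genes passed. The cause was not tested. The number of mice limits the precision.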
